A study of Mus musculus with 6 samples.

Results

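The genes described here are 10 feedback inhibitors and targets of the transcription factor NF-kB: Tnfaip3, Tnip1, Tnip2, Tnip3, Nfkbia, Nfkbie, Nfkbiz, Nfkbid, Bcl3 and Birc3. The genes were listed by name as members of this feedback, with earlier results of these data known, and all 10 were measured, each by 1 probe set that names no other gene, among 19752 genes in all. The cells were regulatory T (Treg) cells, which restrain immune responses under the transcription factor Foxp3, from the pancreas and the spleen of prediabetic female mice aged 10 weeks, with 3 arrays for each tissue. All mice were NOD.Foxp3-ires-gfp, a strain that develops autoimmune diabetes spontaneously and whose green fluorescent protein reports Foxp3, and the labels give the background as NOD NRB_SFB+. Neither group received a treatment that the labels name. The sort kept DAPI-negative cells positive for CD4, TCRb, CD45 and GFP. The comparison sets Treg cells from the organ that autoimmunity targets against Treg cells from a lymphoid organ. The labels do not say whether an array holds 1 mouse or a pool, so the spread behind each p-value may be technical. Arrays of 1 tissue differed in the width of their log2 values, with pancreas array 3 the narrowest and pancreas array 1 the widest of all, and genes of other cells, acinar genes foremost, stood higher on the pancreas arrays. In bulk RNA, fewer cells of a type and less RNA per cell cannot be told apart.

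NF-kB is a family of dimeric transcription factors that IkB proteins hold inactive until a receptor signal, in T cells foremost that of the antigen receptor with CD28 or of the TNF receptor family, activates the IkB kinase complex. Active NF-kB then switches on genes of its own inhibitors, so that the response limits itself. In Treg cells the pathway, in particular the subunit c-Rel, is needed for the induction of Foxp3 and for the activated, effector state.

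Of the 10 genes, 2 passed the test as higher in pancreatic than in splenic Treg cells. Both belong to the ubiquitin-editing arm of the feedback, as do Tnip1 and Tnip2, which did not pass. The 2 higher genes were Tnfaip3 and Tnip3. Tnfaip3 encodes A20, an enzyme that edits ubiquitin chains on signalling proteins and so ends NF-kB activation. Tnip3 encodes ABIN-3, a ubiquitin-binding partner of A20. The other 8 did not pass the test in either direction (limma, Benjamini-Hochberg adjustment over all genes, threshold 0.05). Over all 19752 genes, 0.547% passed as higher and 0.132% as lower in pancreas. At an unadjusted limma p under 0.05 the 10 genes gave 3 higher, with Bcl3 as the third, and 0 lower, beside 3.20% and 3.64% of all genes. The count of 2 past the test became 0 without pancreas array 1 or 2 or spleen array 1 or 2, and 1 without spleen array 3. It was also 0 after median centring of the arrays, and 0 with values under background raised to that level. The median log2 fold change, pancreas minus spleen, was 0.27 over the 10 genes and -0.00091 over all genes.

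**Figure D1:**
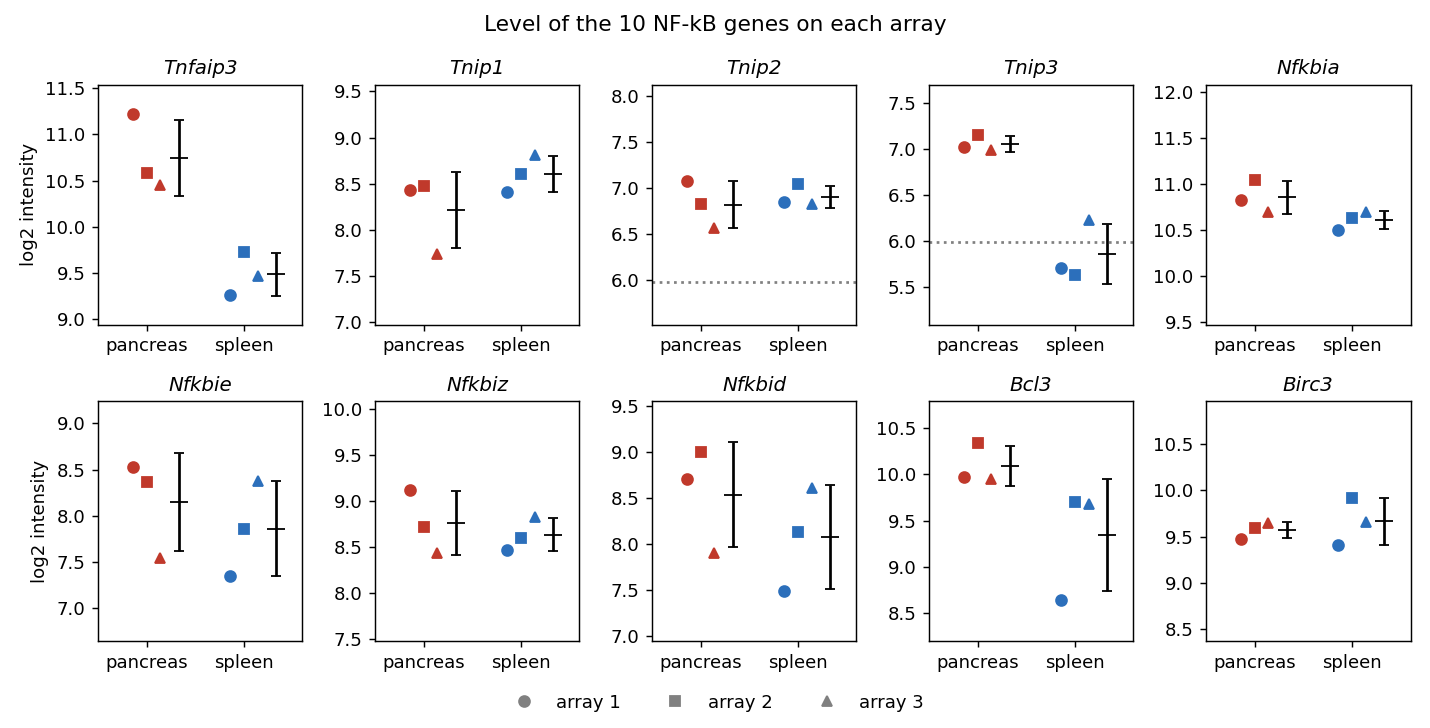
Log2 intensity (vertical axis, with the same span in each panel) of each of the 10 genes on the 3 pancreas arrays (red) and the 3 spleen arrays (blue), with the mean and SD of each tissue in black and the background level as a dotted line where it falls in the panel. The arrays of the tissues stand clearly apart for Tnfaip3 and Tnip3, are separate by 0.25 for Bcl3 and nearly touch for Nfkbia. They overlap for Tnip1, Tnip2, Nfkbie, Nfkbiz, Nfkbid and Birc3.

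The log2 intensity of Tnfaip3 was 11.22, 10.58 and 10.45 on pancreas arrays 1 to 3, and 9.25, 9.73 and 9.46 on spleen arrays 1 to 3. Every pancreas array was above every spleen array, and the lowest pancreas array exceeded the highest spleen array by 0.72. The means were 10.75 ± 0.41 and 9.48 ± 0.24 (SD, n = 3 each), a 2.41-fold difference (log2 fold change 1.27 ± 0.23 SE, 95% interval 0.77 to 1.77, adjusted p = 0.0355). With 1 array left out the log2 fold change ran from 1.03 to 1.42. The call ended without pancreas array 1 (adjusted p = 0.0631) or 2 (0.0939) and without spleen array 1 (0.107), 2 (0.0664) or 3 (0.105), and held without pancreas array 3 (0.00354). Median centring of the arrays ended it too (0.170), as did, at an unchanged fold, raising values under background to that level in every gene (0.452).

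Of the 3 ABIN genes, Tnip3 alone passed the test. The log2 intensity of Tnip3 was 7.02, 7.15 and 6.99 on pancreas arrays 1 to 3, and 5.71, 5.63 and 6.23 on spleen arrays 1 to 3. All 3 pancreas arrays were above the background level, a log2 intensity of 5.99 set from olfactory and vomeronasal receptor genes, and of the spleen arrays only array 3 was. With the other 2 raised to that level, the difference was at least 1.98-fold, and the call ended when this was done in every gene (adjusted p = 0.226). The fitted log2 fold change was 1.20 ± 0.19 SE (95% interval 0.77 to 1.62, adjusted p = 0.0207). The call ended without pancreas array 1 (adjusted p = 0.0621) or 2 (0.111) and without spleen array 1 (0.0714) or 2 (0.112), and with each array centred on its median (0.0962). It held without pancreas array 3 (0.00625) or spleen array 3 (0.0117).

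Tnip1, which encodes ABIN-1, the widely expressed member of the family, ran the other way without passing the test. It stood at 8.43, 8.47 and 7.74 on pancreas arrays 1 to 3 and at 8.41, 8.60 and 8.81 on spleen arrays 1 to 3 (log2 fold change -0.39, 95% interval -0.88 to 0.10, adjusted p = 0.936), and the difference was -0.15 without pancreas array 3. Pancreas array 3 was the low one, and the tissues overlapped. Tnip2, which encodes ABIN-2, a partner of the kinase Tpl2 as well as of A20, was at 7.08, 6.83 and 6.56 in pancreas and at 6.84, 7.04 and 6.83 in spleen (-0.08, 95% interval -0.48 to 0.31). Within each array, the log2 ratio of Tnip3 to Tnip1 ran from -1.42 to -0.74 in pancreas. In spleen, where Tnip3 was not above background on arrays 1 and 2, the ratio has only a bound there. With those values raised to background it was -2.62 to -2.42, a shift of at least 1.38. An exact two-sided permutation test of the ratio as measured gave p = 0.1, the smallest value that 3 arrays against 3 allow. Adjustment over the 2 ratios compared left it at 0.1. Neither ratio was among the planned comparisons. Tnip3 had already passed the test with separate arrays, so this p-value adds no support of its own.

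The upstream sequences of Tnfaip3 and Tnip3 are shown because both genes rose, beside those of Nfkbia, the classic NF-kB target, and of Tnip1, which did not pass. Each is the 250 bases before a RefSeq start site in GRCm38.p6, given 5′ to 3′ on the gene's strand, with matches to the kB motif, the 10-base consensus to which NF-kB binds, in capitals.
Tnfaip3, chr10:19015411-19015660, - strand: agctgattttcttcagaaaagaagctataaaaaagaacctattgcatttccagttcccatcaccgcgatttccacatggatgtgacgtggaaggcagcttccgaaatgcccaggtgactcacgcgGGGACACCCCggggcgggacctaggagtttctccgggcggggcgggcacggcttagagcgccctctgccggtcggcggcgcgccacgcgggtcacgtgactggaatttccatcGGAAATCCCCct
Tnip3, chr6:65590148-65590397, + strand: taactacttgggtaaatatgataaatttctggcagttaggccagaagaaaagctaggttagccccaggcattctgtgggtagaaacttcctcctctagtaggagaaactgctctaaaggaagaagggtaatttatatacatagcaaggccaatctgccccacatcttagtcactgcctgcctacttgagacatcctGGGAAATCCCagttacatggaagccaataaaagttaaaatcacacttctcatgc
Nfkbia, chr12:55492648-55492897, - strand: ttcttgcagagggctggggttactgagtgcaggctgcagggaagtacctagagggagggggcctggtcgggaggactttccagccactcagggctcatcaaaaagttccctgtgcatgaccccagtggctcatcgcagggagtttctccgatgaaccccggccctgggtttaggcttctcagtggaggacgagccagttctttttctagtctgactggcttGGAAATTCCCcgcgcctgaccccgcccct
Tnip1, chr11:54962941-54963190, - strand: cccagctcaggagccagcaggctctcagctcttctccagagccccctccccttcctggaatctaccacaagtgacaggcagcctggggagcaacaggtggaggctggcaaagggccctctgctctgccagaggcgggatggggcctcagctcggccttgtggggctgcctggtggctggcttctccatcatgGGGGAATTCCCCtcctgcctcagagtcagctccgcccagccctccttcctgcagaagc
Tnfaip3 has 2 matches, of which GGAAATCCCC starts 12 bases before the start site, and its other RefSeq window has 0. The Tnip3 match, GGGAAATCCC, starts 54 bases before the start site, and the match of Nfkbia, GGAAATTCCC, starts 29 bases before it. In Tnip1, 3 overlapping matches form 1 stretch of capitals. Of the 9 genes with an entry, 6 had a match on either strand in at least 1 window, against 4.46% of 27025 genes, or in 6 of 12 windows against 3.90% of 32851. The genes were listed as NF-kB feedback genes and targets, so the choice itself favours matches and the contrast is not a test. The genes with a match were Tnfaip3, Tnip1, Tnip3, Nfkbia, Nfkbie and Nfkbid. Those without one in these windows were Tnip2, Bcl3 and Birc3. A match is a run of letters and not a measured binding site, and matches were present both in genes that rose and in genes that did not pass.

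The classical IkB genes did not pass the test. Nfkbia encodes IkBa, which holds NF-kB dimers in the cytoplasm, is degraded on activation and is made anew by the NF-kB it releases. It was at 10.82, 11.04 and 10.69 on pancreas arrays 1 to 3 and at 10.50, 10.63 and 10.69 on spleen arrays 1 to 3. The pancreas arrays were all above the spleen arrays, but by a gap of only 0.00067. The difference was 0.25 ± 0.17 SE on the log2 scale (95% interval -0.12 to 0.61), and 0.15 without pancreas array 2. The log2 ratio of Tnfaip3 to Nfkbia within each array ran from -0.47 to 0.39 in pancreas and from -1.25 to -0.90 in spleen, a shift of 1.02 (exact two-sided permutation p = 0.1, the smallest possible). All 3 pancreas ratios exceeded all 3 spleen ratios. The arrays of Tnfaip3 by itself were already separate, so this p-value adds no support of its own.

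Nfkbie, the gene of IkBe, a further cytoplasmic inhibitor, spread widely within each tissue. It was at 8.53, 8.37 and 7.54 on pancreas arrays 1 to 3 and at 7.34, 7.85 and 8.37 on spleen arrays 1 to 3. Spleen array 3 stood above pancreas array 3. The difference of 0.29 (95% interval -0.38 to 0.96) was smaller than the SD of either tissue, 0.53 and 0.52. With 1 array left out the difference was lowest, at 0.03, when spleen array 1 was dropped and highest, at 0.59, when pancreas array 3 was.

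Among the nuclear, atypical IkB proteins, which bind NF-kB on DNA and can raise as well as lower transcription, none passed the test. Bcl3, whose product joins the p50 and p52 subunits, had the largest difference of them. It was at 9.98, 10.34 and 9.95 on pancreas arrays 1 to 3 and at 8.64, 9.70 and 9.68 on spleen arrays 1 to 3. The tissues did not overlap, with a gap of 0.25, and spleen array 1 stood well below the other spleen arrays. The log2 fold change was 0.75 ± 0.27 SE (95% interval 0.14 to 1.35, adjusted p = 0.493). Without spleen array 1 it was 0.40.

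Nfkbid encodes IkBNS, which is known to promote Foxp3 induction while Treg cells develop. It was at 8.70, 9.00 and 7.90 on pancreas arrays 1 to 3 and at 7.49, 8.13 and 8.61 on spleen arrays 1 to 3, with a difference of 0.46 (95% interval -0.25 to 1.17). The tissues overlapped through pancreas array 3 and spleen array 3. The difference was 0.16 without spleen array 1, 0.22 without pancreas array 2, 0.77 without pancreas array 3 and 0.72 without spleen array 3. Nfkbiz, the gene of IkBz, an inducible cofactor for a subset of NF-kB targets, was at 9.12, 8.72 and 8.43 in pancreas and at 8.47, 8.60 and 8.82 in spleen (0.13, 95% interval -0.32 to 0.58).

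Birc3, a direct NF-kB target that encodes the ubiquitin ligase cIAP2 of the TNF receptor complexes, had a difference close to 0. It stood at 9.48, 9.59 and 9.65 on pancreas arrays 1 to 3 and at 9.41, 9.92 and 9.66 on spleen arrays 1 to 3 (log2 fold change -0.09, 95% interval -0.48 to 0.30). The spleen arrays enclosed the pancreas arrays.

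**Figure D2:**
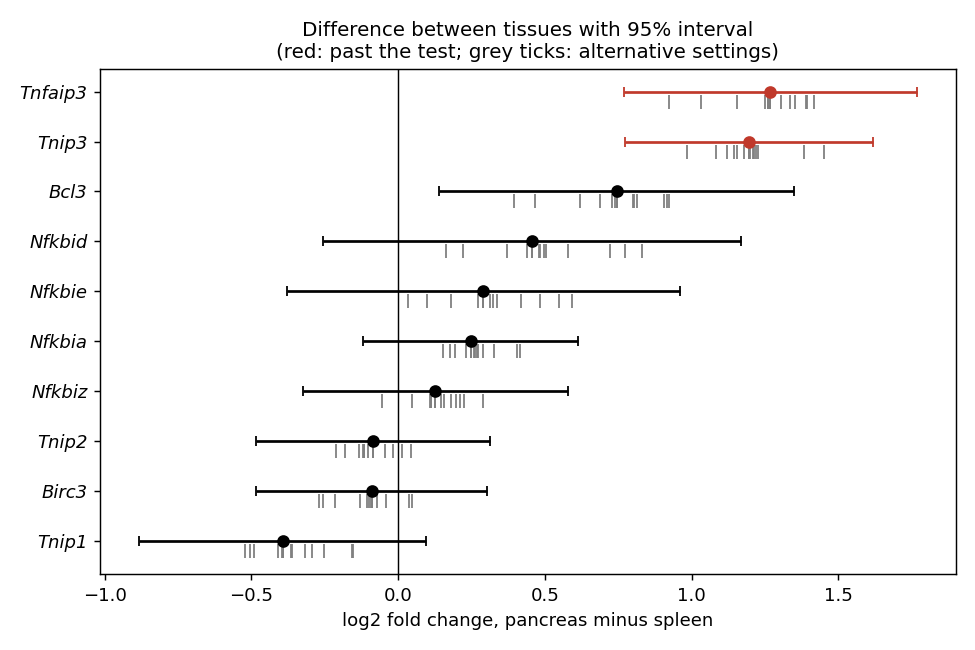
Difference between pancreas and spleen (horizontal axis, log2 fold change) for each of the 10 genes, with its 95% interval as a bar, red where the test was passed, and the values under the 17 alternative settings as grey ticks below. The intervals of Tnfaip3 and Tnip3 both start at 0.77, the interval of Bcl3 starts at 0.14, and the other 7 intervals include 0.

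Counted by arrays rather than by the test, 4 of the 10 genes had all pancreas arrays above all spleen arrays: Tnfaip3, Tnip3, Nfkbia and Bcl3. None had all below. Over all genes, 4.57% were so separated upward and 5.81% downward. In means, 7 of the 10 were higher in pancreas, beside 49.8% of all genes.

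Array width moved with several of these genes. The interquartile range of the log2 values was 3.07, 2.72 and 2.23 for the pancreas arrays in order and 2.49, 2.80 and 3.00 for the spleen arrays. The number of the 10 genes above their own tissue mean was 6, 8 and 1 on pancreas arrays 1 to 3, and 0, 6 and 7 on spleen arrays 1 to 3. The low counts belong to the narrowest array of each tissue, pancreas array 3 and spleen array 1. There the median deviation from the tissue mean was -0.28 and -0.21 over the 10 genes, and 0.014 and 0.032 over all genes. All genes include dim ones, while the 10 all have a mean above background. Whether other genes as bright moved alike was not tested. The within-tissue SD had a median of 0.30 over the 10 genes and of 0.23 over the 11742 genes with a mean above background. It was largest for Nfkbid (0.57) and Nfkbie (0.52) and smallest for Nfkbia (0.14).

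When each array was centred and scaled to the mean interquartile range, the within-tissue SD became smaller for 5 of the 10 genes and larger for the other 5, and its median was 0.34 against 0.30 before. The SD of Nfkbiz went from 0.28 to 0.09 and that of Tnip1 from 0.32 to 0.19, while that of Nfkbia went from 0.14 to 0.43 and that of Birc3 from 0.19 to 0.40. On that scale the arrays of Nfkbiz no longer overlapped, at 8.70 to 8.91 in pancreas against 8.55 to 8.68 in spleen. Those of Tnip1 separated downward, at 7.93 to 8.45 against 8.55 to 8.66, and those of Nfkbia came to overlap. Tnfaip3, Tnip3 and Bcl3 stayed separated, and the call of Tnfaip3 held (adjusted p = 0.0370) while that of Tnip3 did not (0.0585). With the interquartile range as a covariate, a setting chosen after seeing the data, Tnfaip3 (log2 fold change 1.34, adjusted p = 0.00233) and Tnip3 (1.22, adjusted p = 0.00465) passed and the other 8 did not. Leaving out the narrowest array of each tissue, also chosen after seeing the data, again left these 2 genes past the test (adjusted p = 0.00113 and 0.00303).

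**Figure D3:**
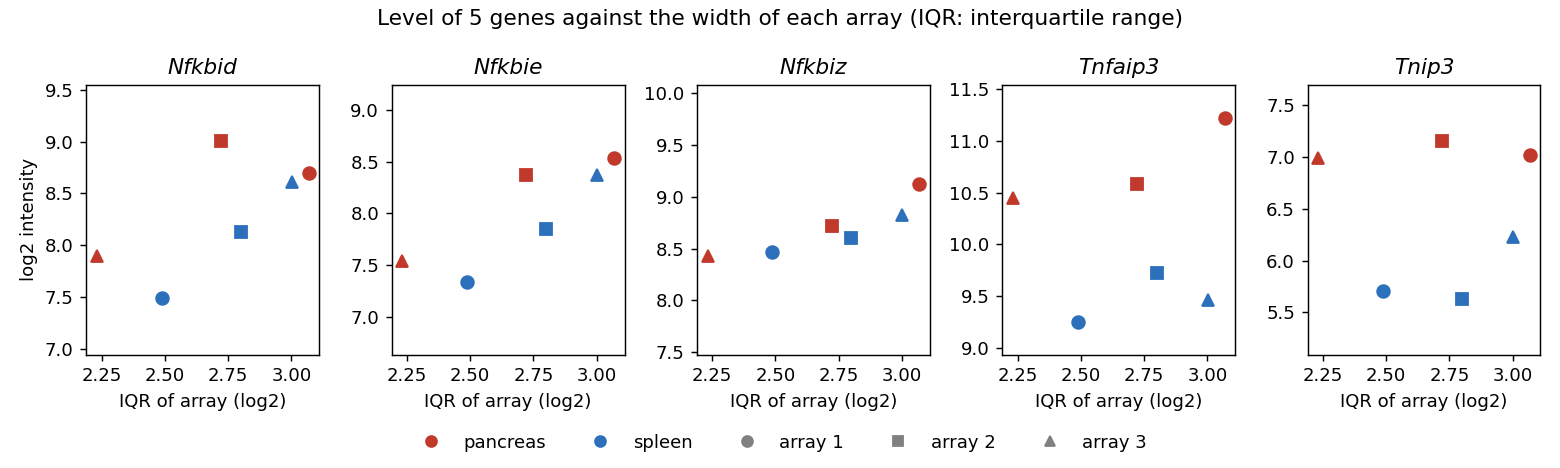
Log2 intensity of 5 of the genes (vertical axis) against the interquartile range of the log2 values of each array (horizontal axis), for pancreas (red) and spleen (blue). For Nfkbid, Nfkbie, Nfkbiz and Tnfaip3 the narrowest array of each tissue is its lowest point, and for Tnfaip3 and Tnip3 all pancreas points lie above all spleen points.

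Upstream in the pathway, no gene passed the test. At an unadjusted limma p under 0.05, 3 of 18 ligand or receptor genes were higher and 1 lower. Of 22 kinase or adaptor genes it was 1 each way. Over all genes, 3.20% were higher and 3.64% lower at that p. Of 18 measured ligand and receptor genes, 12 had a higher mean in pancreas, beside 49.8% of all genes, with a median log2 fold change of 0.09. Only 11 of the 18 had a mean above background, so some of these signs rest on dim values. Those with the smallest p were Tnfrsf13c, the gene of the BAFF receptor, which B cells express strongly (0.73, adjusted p = 0.189), Tnfrsf1b, the gene of TNF receptor 2, through which TNF acts on Treg cells (0.77, adjusted p = 0.447), and Il18r1, an interleukin 18 receptor gene (0.41, adjusted p = 0.646). Of 22 kinase and adaptor genes, 16 had a lower mean in pancreas, beside 9915 of all 19752 genes, with a median of -0.14. Here Malt1, the protease and scaffold that links the antigen receptor to the IkB kinase, was at 0.63 (adjusted p = 0.318). Prkcq, the kinase that acts above it in T cells, was at -0.50 (adjusted p = 0.445), and Map3k8, the gene of Tpl2, was at -0.30.

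The NF-kB subunits themselves did not pass either, with 0 of 4 measured (limma). Only Rel had an unadjusted p under 0.05, as lower, beside 3.64% of all genes. Rel, the gene of c-Rel, was at 10.57, 10.38 and 10.39 on pancreas arrays 1 to 3 and at 10.80, 10.96 and 10.77 on spleen arrays 1 to 3. All pancreas arrays were the lower ones (log2 fold change -0.40, 95% interval -0.75 to -0.05, adjusted p = 0.602). Nfkb2, whose p100 product is itself an IkB-like inhibitor, was at 0.51 (95% interval -0.05 to 1.07) and Relb, its partner in the alternative pathway, at 0.30. Both are NF-kB targets.

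Of 13 other inhibitors of the pathway, 0 passed the test (limma), 0 had an unadjusted p under 0.05 and 0 had separate arrays, and the median difference was -0.08 on the log2 scale. The smallest p belonged to N4bp1 (0.33), Itch, a ubiquitin ligase that works with A20 (-0.30), and Nfkbib, the gene of IkBb (0.29).

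Of 25 other NF-kB targets, 3 passed as higher and 0 as lower, beside 0.547% and 0.132% of all genes. They were the chemokine genes Ccl3 and Ccl5 and the cytoskeletal adaptor gene Plek. At an unadjusted limma p under 0.05, 10 were higher and 2 lower, beside 3.20% and 3.64% of all genes. Ccl3 was at 8.65 to 9.05 in pancreas and 5.67 to 6.08 in spleen, with 1 spleen array above background, at least a 6.80-fold difference (adjusted p = 7.70e-05). Ccl5 was 4.21-fold higher (adjusted p = 0.0141) and Plek 2.37-fold (adjusted p = 0.0168). The count of 3 became 1 without pancreas array 2 or spleen array 2 and 6 without pancreas array 3. It was 1 after median centring of the arrays and 0 with values under background raised to that level. The median of the list was 0.19, and 9 genes were separated upward and 3 downward, beside 4.57% and 5.81% of all genes. Gadd45b, a stress-induced target named after its values were seen, was at 1.38 (adjusted p = 0.160), and Ccr7, likewise named, at -0.78 (adjusted p = 0.123).

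**Figure D4:**
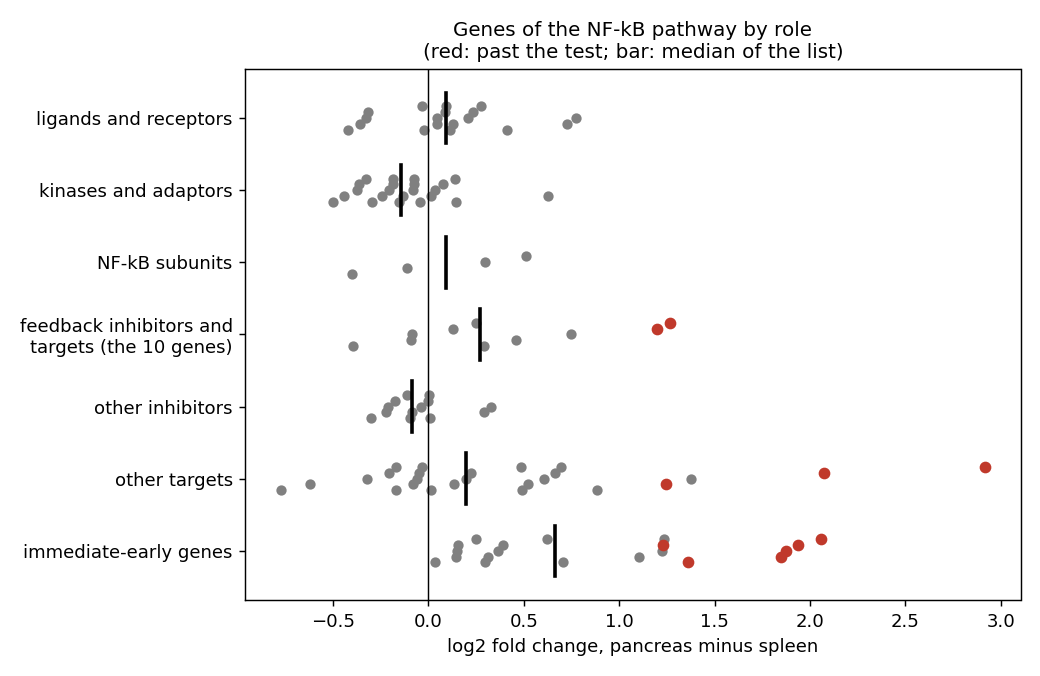
Log2 fold change, pancreas minus spleen (horizontal axis), of every measured gene of the pathway by role, 1 point a gene, red where the test was passed, with the median of each list as a black bar and the immediate-early genes as the lowest row. Medians run from -0.14 for kinases and adaptors to 0.27 for the 10 feedback genes, and 0.66 for immediate-early genes.

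Other gene groups differed on the same arrays. Over all genes, 0.547% passed as higher, 3.20% were higher at an unadjusted limma p under 0.05 and 4.57% were separated upward. Immediate-early genes, known to respond fast to signals and to tissue handling, had 6 of 20 members past the test as higher. Of the 20, 12 were higher at that unadjusted p, 12 were separated upward and 20 had a higher mean. Their summed intensity was 13653 to 16646 in pancreas and 6791 to 9840 in spleen. Fos was at 8.19 ± 0.34 and 6.13 ± 0.16 (SD, n = 3 each), and Jun at 9.56 ± 0.22 and 7.62 ± 0.73. Acinar genes had 14 of 16 past the test, with a sum of 15923 to 33927 in pancreas and 1412 to 3237 in spleen. B cell markers had 1 of 14 past it, Cd79a, 14 of 14 with a higher mean, and a sum of 1574 to 3099 against 1252 to 1424. At an unadjusted limma p under 0.05, 11 of the 14 were higher and 0 lower, and 7 were separated upward. Macrophage and dendritic cell markers had 1 of 21 past it, Lyz2, and a sum of 2066 to 2520 against 1465 to 1604. Of these, 7 were higher and 0 lower at that unadjusted p, and 8 were separated upward. Of those 21, 10 were below background on all 6 arrays, Csf1r among them, and 0 of the 14 B cell markers were. B cells and myeloid cells also express the genes described here. The part of these groups in the levels of Tnfaip3 and Tnip3, and of Ccl3, Ccl5 and Plek, was not tested.

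The genes that mark the sorted cells were checked too. On a list of 11 for Treg and T cell identity, 0 passed (limma), and the median was -0.04. At an unadjusted limma p under 0.05, 1 was higher, beside 3.20% of all genes. The 1 was Ctla4, at 0.60 (adjusted p = 0.318), with all pancreas arrays above all spleen arrays. Il2ra was at -0.32 (adjusted p = 0.842), with all pancreas arrays below, and the arrays of the other 9 overlapped. The level of Foxp3 was 11.48 ± 0.16 on the pancreas arrays and 11.52 ± 0.32 on the spleen arrays. Of the remaining markers, 1 of 9 for CD8 T and NK cells, 0 of 10 for islets and 0 of 14 for stroma and endothelium passed. The 1 was Klrc1, an NK cell receptor gene, which was not above background on any of the 6 arrays.

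Among the 11741 other genes with a mean above background, those whose profile over the 6 arrays lay nearest to that of Tnfaip3 were Kif15, Nfil3, Tpx2, Cdca5 and Pole. Kif15, Nfil3 and Pole were above background on all 6 arrays, and their log2 values, each centred on its own mean, differed from those of Tnfaip3 by a root mean square of 0.102, 0.123 and 0.129. Tpx2 was above background on 1 spleen array and Cdca5 on 0, so their likeness rests in part on values not above background, as does that of Tnip3. Tnip3 ranked 149th on this measure with 0.359, Bcl3 387th with 0.468, and Tnip1 10737th. The profile of Nfkbia was nearest to those of Rnf26, Haspin, Thop1, C1qbp and Naa38, at 0.0405 to 0.0465, with Thop1 above background on 2 of the 6 arrays, and no other of the 10 genes came closer to it than 0.214, the value of Nfkbiz.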

How the data were processed

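Total RNA of sorted Treg cells was amplified (Ambion WT Expression Kit) for Affymetrix Mouse Gene 1.0 ST arrays, per the labels. The authors deposited 1 linear intensity per probe set and array, made, per the submitters' processing notes, with RMA and Affymetrix Power Tools. The normalization across arrays is not given there, and column medians ran from 82.0 to 92.0. Values were taken to log2 with no pseudocount or filter. Of 24922 probe sets, 21425 name exactly 1 gene, 1399 several and 2098 none in the platform annotation. The brightest by mean was used where a gene had several, which left 19752 genes. The background level was the 95th percentile of the mean log2 value over 1190 olfactory and vomeronasal receptor genes, an intensity of 63.4. For arrays, their number limits the precision.

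Tissues were compared with limma 3.58.1 in R 4.3.3 (lmFit and eBayes, no covariates, two-sided, Benjamini-Hochberg over all genes, threshold 0.05). The fit was first tested on simulated data with independent noise in each gene. Those data held no differences in array width, so that test does not cover them. Alternatives covered normalization, background, dim genes, probe sets, the variance model, array weights, array width, the replicate block and each array left out. The members and lists were chosen with earlier results of these data known. Of each pathway list, the genes past the test are named, or otherwise the 3 with the smallest p above background. Listed genes without a probe set of their own, Nfkb1 among them, are not analysed here. Promoters came from RefSeq, GRCm38.p6, matched by symbol for 9 of the 10 genes. Plots used matplotlib 3.10.9 (Python 3.11.15).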

Additional observations from a re-analysis of the deposited data

How the results depend on the processing

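The count of the 10 genes higher in pancreas was 2 with all arrays. It was 0 after median centring of each array, 0 with values under background raised to that level, and 1 with arrays centred and scaled to a common interquartile range. The count of all genes past the test, 134, was then 38, 3 and 71, and that of the other NF-kB targets, 3, was 1, 0 and 3. Raising dim values lowered the prior degrees of freedom (6.58 before, 0.354 after), and the call of Tnfaip3 ended at an unchanged fold. Quantile normalization gave 203 genes. With 1 array left out, the count of the 10 genes ranged from 0 to 2, that of all genes from 64 to 262 and that of the other targets from 1 to 6. The estimate of array weights stopped before it converged, with weights of 9.50 and 5.69 on pancreas and spleen array 2 and of 0.236 to 0.650 on the rest. It gave 7206 genes (3803 higher and 3403 lower), 6 of the 10 genes higher and 1 lower, and 2 subunits, 8 ligands or receptors, 12 kinases or adaptors, 5 other inhibitors and 17 other targets, none of which is used. Of the settings chosen after seeing the data, the interquartile range as a covariate gave 538 genes, with 2 ligands or receptors, 1 kinase or adaptor and 8 other targets. Leaving out the narrowest array of each tissue gave 347, with 1 kinase or adaptor, 7 other targets and 7 of the 10 genes not overlapping. With only 2 arrays a tissue, genes separate more readily than with 3. The share over all genes was not computed there, so that count of 7 is not read as a result.

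Tnfaip3, Tnip3, Bcl3, Nfkbia, Nfkbid and Nfkbie were higher and Tnip1 lower in pancreas under all 17 alternatives. The 17 include the fit with array weights, which did not converge, and settings that could not change a fold change. They are not independent checks of the sign. Leaving out dim genes, averaging probe sets, the other variance model and the replicate block could not change the fold change of these genes. Each has 1 probe set, and each replicate number has 1 array of each tissue. These settings bear only on the adjusted p. Raising values under background changed only that of Tnip3. The sign turned, without a call, for Birc3 (0.0472 with scaled arrays, and -0.217 to 0.0379 with 1 array left out), Nfkbiz (-0.0548 to 0.291 with 1 array left out) and Tnip2 (-0.211 to 0.0448 with 1 array left out, 0.0139 without the narrowest arrays). With the replicate number as a block, both calls held (adjusted p = 0.0327 for Tnfaip3 and 0.0309 for Tnip3). Arrays of the same number correlated in their deviations by -0.465, 0.115 and -0.677. Arrays 1 and 3 differed in width between the tissues, so these correlations cannot show whether arrays of the same number share more than it. Differences of the size of that of Nfkbia lie within the error of 3 arrays a tissue.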
